A study of Mus musculus with 12 samples.

Results

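Amino acid transporter mRNAs were followed in mouse neural stem cells (NSCs) grown at 3 concentrations of folic acid. The genes were 9 listed transporter symbols: Slc3a2, Slc7a5, Slc7a1, Slc7a3, Slc1a4, Slc1a5, Slc38a1, Slc38a2 and Slc6a9. All 9 were found among the 43432 gene identifiers of the deposited tables, and all 9 passed the filter on low counts in every fit. The name neutral amino acid transporters covers most of them but not all. Slc7a1 and Slc7a3 encode carriers of cationic amino acids, and Slc3a2 encodes a partner chain that carries no substrate itself.

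The NSCs had been isolated from wild-type male C57BL/6 mice aged 6 to 8 weeks, out of the subventricular zone that lines the lateral ventricles of the adult brain. Folic acid in their medium was low at 1.5 µM (LF), median at 10 µM (MF) or high at 80 µM (HF) for 4 days, with EGF and bFGF in the medium of every group. From each dose, total poly(A) RNA and polysome poly(A) RNA, which is mRNA carrying several ribosomes, were sequenced in 2 biological replicates, giving 12 libraries in 6 groups. The labels do not say whether replicates came from separate animals or cultures, so p-values measure only the spread between these libraries. Stem cell markers were present throughout, with Nes, an intermediate filament, at 357 to 469 TPM and Sox2, a transcription factor of neural progenitors, at 100 to 115 TPM in total mRNA (TPM counts transcripts relative to all transcripts of a library, so it is a level per length).

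Cells take up amino acids through families of solute carriers that exchange one amino acid for another or move it in with sodium. The heavy chain encoded by Slc3a2 pairs with light chains such as that of Slc7a5 and brings them to the cell surface, where leucine and other large neutral amino acids enter in exchange for glutamine. When amino acids run short or other stresses phosphorylate eIF2α, the transcription factor ATF4 is translated and raises many of these transporters together with amino acid synthesis enzymes and tRNA synthetases. Neural stem cells use such uptake for growth and for signalling to mTORC1, the kinase complex that senses amino acids.

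All 9 genes are protein-coding in GENCODE on mm10. The heavy chain gene Slc3a2 (ENSMUSG00000010095) lies on chromosome 19 from 8706882 to 8723369. Its light chain gene Slc7a5 (ENSMUSG00000040010) lies on chromosome 8 from 121881150 to 121907694. The cationic carriers Slc7a1 (ENSMUSG00000041313) and Slc7a3 (ENSMUSG00000031297) lie on chromosome 5 from 148327410 to 148399904 and on chromosome X from 101079210 to 101086020. Slc1a4 (ENSMUSG00000020142) lies on chromosome 11 from 20302180 to 20332713 and Slc1a5 (ENSMUSG00000001918) on chromosome 7 from 16781340 to 16798274. Slc38a1 (ENSMUSG00000023169) and Slc38a2 (ENSMUSG00000022462) are near neighbours on chromosome 15, from 96571418 to 96642913 and from 96687392 to 96699730. Slc6a9 (ENSMUSG00000028542) lies on chromosome 4 from 117834506 to 117875198. The strand setting of the counting is not known, and Slc7a5 is overlapped on the opposite strand by the predicted gene Gm20388, which took 2578 to 7539 counts a library. Slc6a9 overlaps B4galt2, Ccdc24 and Gm17114 on the opposite strand. The counts of Slc7a5 and Slc6a9 are therefore uncertain.

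RefSeq promoters on GRCm38.p6, from 250 bases before to 50 bases after a start site, were listed for Slc3a2, Slc7a1, Slc1a4, Slc38a2 and Slc6a9 but not for the other 4. They were searched on both strands for TGATGNAA, the core of the element through which ATF4 and C/EBP partners act at amino acid response genes, and for the cyclic AMP response element TGACGTCA. Neither motif contains the other. Only the Slc1a4 promoter held the first motif, on the opposite strand and across its start site, which is why its window (chr11:20332702-20332725, minus strand, motif in capitals) is shown.
Slc1a4: ctcctgcgTTGCATCAtctccagc
The first base of the match lies 4 bases before the start site. Of all 32851 listed promoters, 3.97% held this motif and 1.79% held the cyclic AMP response element, which was found in no promoter of the 5 genes. A match is a run of letters in this window only, and elements in introns were not searched.

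The transporters spanned more than 2 orders of magnitude in level. In total mRNA at MF, the glutamine and alanine carrier Slc38a2 was highest at 99.5 ± 4.7 TPM (SD, n = 2), followed by Slc3a2 at 75.9 ± 4.6 TPM and Slc1a4, an exchanger of alanine, serine and cysteine, at 75.3 ± 2.4 TPM. Slc3a2 and Slc1a4 did not separate, since their replicates overlapped. Slc38a1, a relative of Slc38a2, stood at 58.3 TPM and Slc7a5 at 34 TPM. Below them came Slc7a1, a carrier of arginine and lysine, at 13.7 TPM and Slc1a5, a glutamine exchanger, at 10.5 TPM. Slc6a9, the glial-type glycine carrier, was at 5.39 TPM and Slc7a3, a second cationic carrier, at 0.935 TPM. All other neighbours in this order were separated in both replicates, and the order was the same on the FPKM scale.

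Polysome mRNA had another order. At MF, Slc3a2 led with 892 and 1041 TPM, ahead of Slc7a5 with 401 and 465 TPM. Slc1a4 followed at 219 TPM, Slc38a2 at 137 TPM and Slc7a1 at 81.1 TPM. Slc1a5, Slc38a1 and Slc6a9, at means of 67.3, 62.6 and 58.6 TPM, overlapped with their neighbours. Slc3a2 ranked at 2266 among 12753 genes with at least 1 TPM in total mRNA and at 151 among 11872 such genes in polysome mRNA. Slc7a5 ranked at 4944 and at 376 in the same lists. The TPM of the 9 genes summed to 343 to 388 in the total libraries and to 1205 to 2265 in the polysome libraries.

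**Figure D1:**
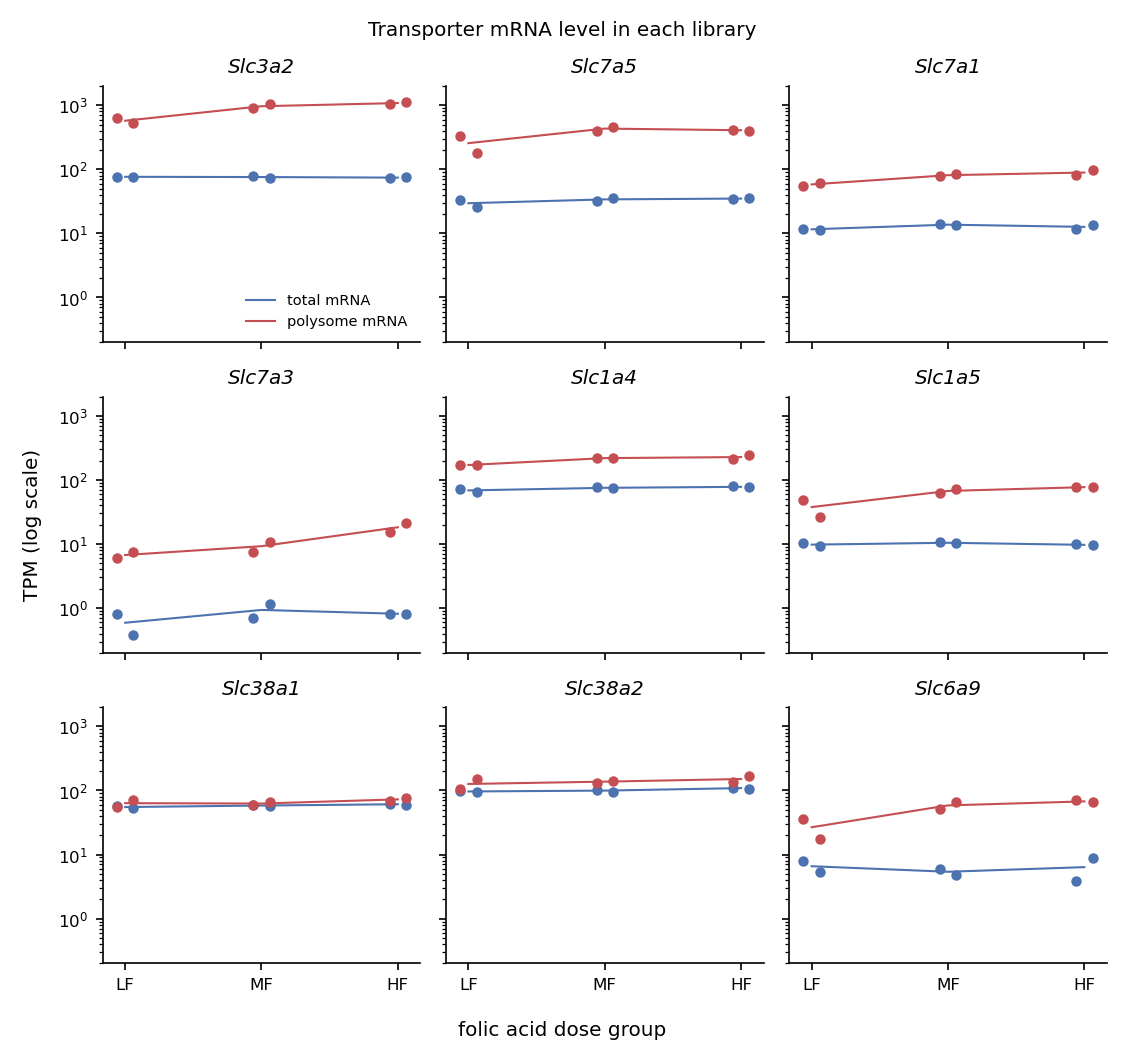
TPM (log axis) of each transporter in the 12 libraries by folic acid dose group, with points for the 2 libraries of a group and lines through the group means, blue for total and red for polysome mRNA. The polysome level of Slc3a2 at MF is 892 and 1041 TPM against 79.1 and 72.6 TPM in total mRNA, while Slc38a1 shows nearly the same level in both.

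All 9 transporters were higher in polysome than in total mRNA relative to the other genes of each library, by 1.38-fold to 22.2-fold over the 3 doses. All genes tested served as the background, of which 32.7% were called higher and 71% were called in either direction. A call here and below is a fold change over 1.2 with an adjusted p under 0.05, by the quasi-likelihood F test of edgeR adjusted over all genes tested after Benjamini and Hochberg. The median of the 9 genes was log2 2.93 and that of all 14421 genes -0.09. The result also stood at LF, MF and HF alone, with 9 of 9 called each time. All 6 polysome libraries lay above all 6 total libraries in CPM, the counts of a gene scaled to library size, for all 9 genes, as they did for 22.8% of all genes.

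The heavy chain gene Slc3a2 took 2315 and 2629 counts in the LF, 2290 and 2192 in the MF and 2361 and 2244 in the HF libraries of total mRNA. In polysome mRNA it took 25072 and 20714 counts at LF, 37604 and 47621 at MF and 45059 and 45552 at HF. Total counts were thus flat across doses, and the lowest polysome counts were those of LF. The polysome level was 13.7-fold the total level over the doses (log2 3.78 ± 0.0729 SE, adjusted p = 6.30e-10), which placed it at rank 88 of 14421 genes.

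Slc7a5 was close behind, 13.5-fold higher in polysome mRNA (log2 3.76 ± 0.136 SE). Its level ran from 26.1 to 35.7 TPM in total mRNA and from 182 to 465 TPM in polysome mRNA, with the lowest value of either fraction in LF replicate 2. The ratio of Slc3a2 to Slc7a5 stayed near the same value, at 2.03 to 2.96 in total mRNA and 1.9 to 2.86 in polysome mRNA on the TPM scale. Of the other light chains that pair with the same heavy chain, Slc7a6, Slc7a7 and Slc7a8 had a lower ratio to Slc3a2 in every polysome library than in any total library. The log2 ratio of Slc7a11 to Slc3a2 overlapped, at -4.94 to -3.70 in total and -6.22 to -4.56 in polysome mRNA. Slc7a10 had at most 0.56 TPM. Slc7a6, the light chain for cationic and neutral exchange, had 30.5 to 32.9 TPM in total mRNA, about the level of Slc7a5, but 38.4 to 46 TPM in polysome mRNA. Slc7a5 made up 41.8% to 47.7% of the summed TPM of 6 light chains in total mRNA and 72.7% to 87% in polysome mRNA, so the groups did not overlap.

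**Figure D2:**
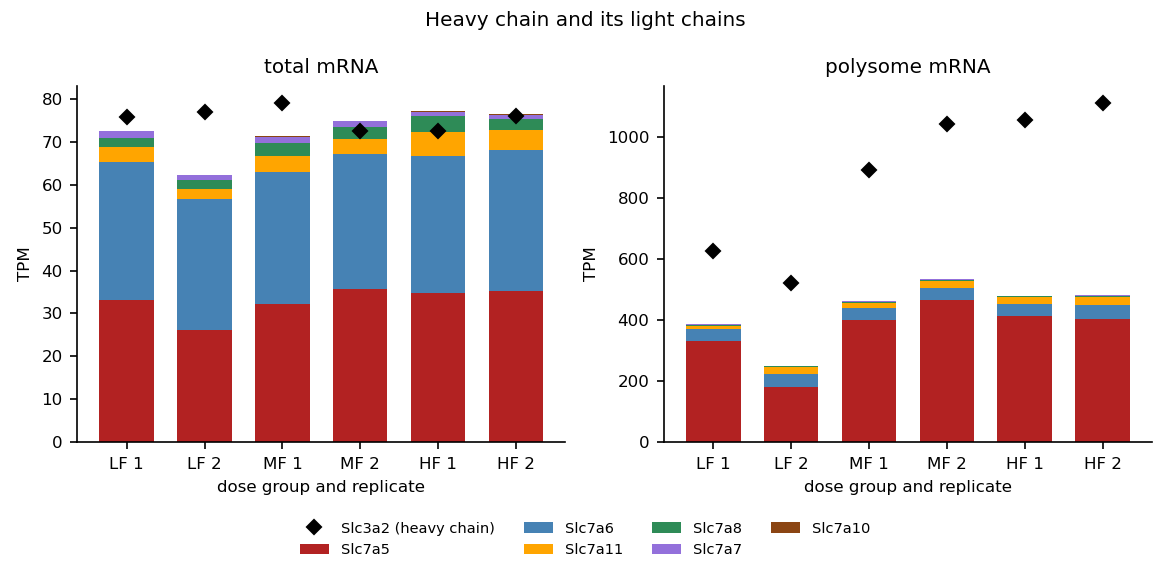
TPM of the heavy chain gene Slc3a2 (diamonds) and of 6 light chain genes that pair with it (stacked bars) in each library, total mRNA left and polysome mRNA right, on different vertical scales. Slc7a5 is 41.8% to 47.7% of the light chain sum in total mRNA and 72.7% to 87% in polysome mRNA.

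The cationic carriers differed widely in level but not in direction. Slc7a1 was 7.64-fold higher in polysome mRNA (log2 2.93 ± 0.0831 SE), from 11.5 to 14.1 TPM in total to 55.2 to 96.5 TPM in polysome mRNA. Slc7a3 was 14.5-fold higher (log2 3.86 ± 0.199 SE), but this rests on 14 to 32 counts per library in total mRNA. It had 213 to 744 counts in the polysome libraries.

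Among the exchangers of small neutral amino acids, Slc1a5 was 7-fold higher in polysome mRNA (log2 2.81 ± 0.136 SE) and Slc1a4 was 3.38-fold higher (log2 1.76 ± 0.067 SE). The sodium-coupled glutamine carriers stood lowest. Slc38a2 was 1.68-fold higher (log2 0.74 ± 0.103 SE, adjusted p = 7.33e-05) and Slc38a1 was 1.38-fold higher (log2 0.47 ± 0.079 SE, adjusted p = 0.000323). On the TPM scale the ratio of Slc38a1 was 1.15 at LF, 1.07 at MF and 1.19 at HF, and at LF its polysome values of 56.2 and 70.6 TPM overlapped the total values of 56.6 and 53.7 TPM. The excess of Slc38a1 is thus small and depends on the scale.

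Slc6a9 had the largest ratio by counts, 22.2-fold (log2 4.47 ± 0.18 SE, adjusted p = 1.77e-08), with 82 to 99 counts in the total and 774 to 3485 in the polysome libraries. The same gene was also assigned to transcripts of other lengths in the 2 fractions. Its effective length, the mean over transcripts weighted by their share, was 868 to 1515 bases in total mRNA and 2488 to 2768 bases in polysome mRNA. Per length, the polysome to total ratio was therefore 4.07 at LF, 10.9 at MF and 10.6 at HF on the TPM scale, against 11.9, 28.1 and 31.3 on the CPM scale. For the other 8 genes the effective lengths of the fractions differed little or overlapped, except that Slc7a3 had 2081 to 2467 bases in total and 1968 to 2008 in polysome mRNA.

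**Figure D3:**
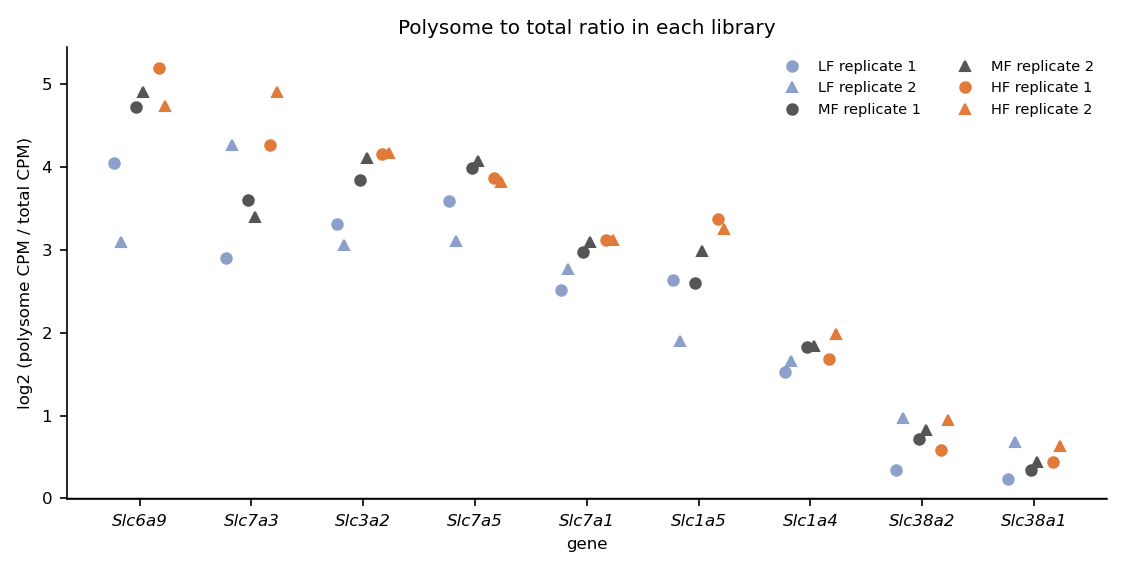
Log2 ratio of polysome to total CPM of each transporter, for libraries of the same dose and replicate number, with circles for replicate 1, triangles for replicate 2 and colours for dose. Genes are ordered by the mean ratio, from Slc6a9 (log2 4.47) to Slc38a1 (log2 0.47). The LF points of Slc3a2, Slc7a5, Slc7a1, Slc1a4 and Slc6a9 lie below their MF points, and those of the other genes overlap. The share of all genes with such a gap in the ratio was not computed. In polysome CPM alone, both LF libraries lay below both MF libraries for 25.3% of all genes. Matching by replicate number serves the drawing only.

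Other amino acid transporters were set beside the 9. Of 42 listed genes 25 were tested, of which 8 were called higher and 7 lower in polysome mRNA, with a median of log2 0.16. Of all genes, 32.7% were called higher and 38.4% lower. Slc7a11, the cystine light chain that also belongs to the ATF4 response, was 6.63-fold higher (log2 2.73 ± 0.23 SE), and Slc6a15, a carrier of branched-chain amino acids and proline, was 2.18-fold higher (log2 1.13 ± 0.112 SE). Slc7a6 was higher by log2 0.66 ± 0.074 SE. Slc1a2, the astrocytic glutamate carrier, was lower (log2 -1.69 ± 0.102 SE), as was the cationic carrier Slc7a2 (log2 -0.94 ± 0.0978 SE).

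Of 30 genes of the ATF4 amino acid response that are not transporters, 29 were called higher in polysome mRNA and 1 lower, with a median of log2 2.84. Trib3, a pseudokinase induced by ATF4, was higher by log2 7.70 ± 0.145 SE. The proline synthesis enzymes Pycr1 and Aldh18a1 were higher by log2 3.63 ± 0.0837 and 2.69 ± 0.0687 SE, the stress protein gene Nupr1 by log2 4.43 ± 0.103 SE and the tryptophanyl-tRNA synthetase gene Wars by log2 2.56 ± 0.0654 SE. The gene that was lower was Eif2ak4, the kinase that senses uncharged tRNA (log2 -0.54), which was named after its value was seen. Of 26 genes of amino acid sensing by mTORC1, 7 were called higher and 11 lower, with a median of log2 -0.18. The shares over all genes were 32.7% higher and 38.4% lower. Rraga and Rragc, the GTPases that recruit mTORC1 to the lysosome, were higher (log2 1.36 ± 0.0898 and 0.83 ± 0.0725 SE), and Mtor, Tsc1 and Sesn3 were lower (log2 -1.08 ± 0.098, -1.15 ± 0.0931 and -1.92 ± 0.0846 SE).

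**Figure D4:**
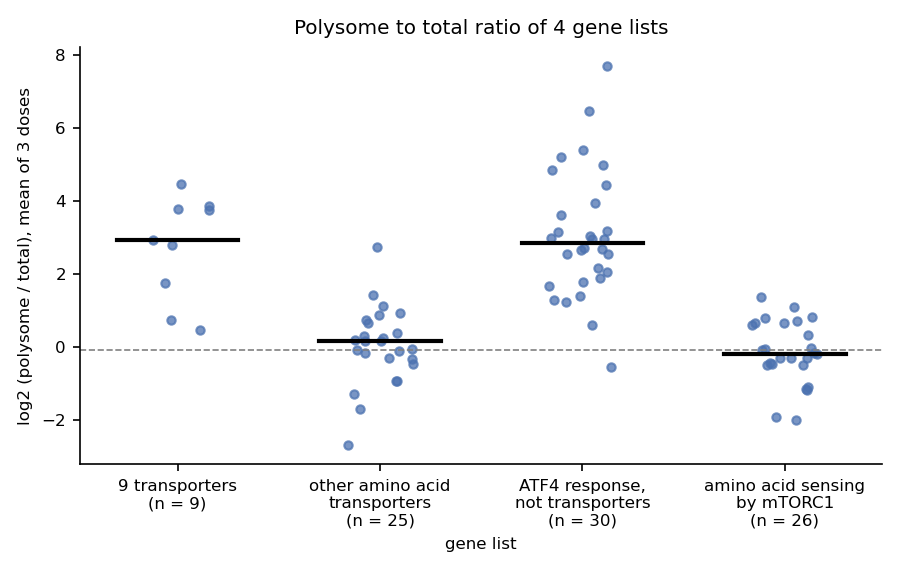
Log2 ratio of polysome to total mRNA over the 3 doses for single genes (points) of 4 lists, with bars at the list medians and a dashed line at the median of all genes, -0.09. The 9 transporters (median 2.93) and the ATF4 response genes (median 2.84) lie above the other amino acid transporters (median 0.16) and the mTORC1 genes (median -0.18).

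For polysomes, cells were held in cycloheximide and their lysate was run through a sucrose gradient, while total RNA was extracted with TRIzol, and whether those cells were also held in cycloheximide is not given in the sources used here. A larger share of an mRNA on polysomes and a higher level of that mRNA in the cells taken for polysomes cannot be told apart in these data. Between the fractions, 32.7% of all genes were called higher in polysome mRNA and 38.4% lower. Of 9 tested mesenchymal and mural markers, 5 were called higher and 1 lower (median log2 0.92). Of 10 neural stem cell markers, 2 were called higher and 4 lower (median log2 -0.29), and Nes had the lowest value (log2 -1.70). The part of these markers in the transporter ratios was not tested.

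The study asked how the dose of folic acid relates to cytosine methylation of mRNA, transcription and translation. Methylation is not analysed here, and the doses were compared within each fraction. In total mRNA none of the 9 transporters was called in LF against MF (0.00719% of all genes called), HF against MF (0.0863%) or HF against LF (1.79%). Counts at an unadjusted p under 0.05 were 1, 1 and 5 of the 9 genes, against 6.27%, 6.98% and 12.6% of all genes. In LF against MF the log2 differences were -0.48 for Slc7a3, -0.13 for Slc7a5, -0.12 for Slc1a4 and for Slc1a5 and -0.10 for Slc7a1, and those of Slc38a1, Slc6a9, Slc38a2 and Slc3a2 lay between -0.06 and 0.03. In HF against MF Slc38a2 had the smallest p of the 9 genes (log2 0.15, adjusted p = 0.34), Slc1a5 stood lowest at -0.16 and Slc7a3 at -0.11, and Slc6a9, Slc3a2, Slc7a1, Slc1a4, Slc38a1 and Slc7a5 lay between -0.03 and 0.11. The smallest adjusted p in HF against LF was that of Slc38a2, from 98.9 and 94.3 TPM at LF to 111 and 107 TPM at HF, a change of 1.13-fold that stayed under the fold threshold (log2 0.18, adjusted p = 0.0452). Slc7a5 was 1.18-fold higher (log2 0.24 ± 0.0794 SE, adjusted p = 0.165) and Slc1a4 differed by log2 0.18 (adjusted p = 0.0589). Slc7a3 had log2 0.37, Slc7a1 0.16 and Slc38a1 0.14, while Slc6a9, Slc3a2 and Slc1a5 lay between -0.04 and 0.02. Among the other amino acid transporters, Slc7a11 (log2 0.79 ± 0.124 SE, adjusted p = 0.00384), Slc1a2 (log2 0.36 ± 0.0835 SE, adjusted p = 0.0237) and Slc1a3, a glutamate carrier of astrocytes and stem cells (log2 0.27 ± 0.0427 SE, adjusted p = 0.00153), rose in HF against LF. No other transporter of that list was called in a dose comparison of total mRNA.

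In polysome mRNA the LF libraries were the low ones for most of the genes. Both LF libraries lay below all 4 MF and HF libraries in CPM for 7 of 9 transporters, namely Slc3a2, Slc7a5, Slc7a1, Slc7a3, Slc1a4, Slc1a5 and Slc6a9, against 15% of all genes. Polysome LF replicate 2 stood apart from its partner: across all genes, log2(TPM + 1) correlated at 0.986 between the LF polysome replicates and at 0.996 to 0.997 in the other groups. LF replicate 1 alone was below all 4 MF and HF libraries for 9 of 9 genes, against 28.5% of all genes, and LF replicate 2 alone for 7 of 9, against 39.4%.

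By the edgeR test, however, no transporter was called in polysome mRNA of LF against MF, where 3 of 13433 genes (0.0223%) passed. The median of the 9 genes was log2 -0.49 against 0.01 for all genes, 8 of 9 values were negative and 4 had an unadjusted p under 0.05, as had 17.3% of all genes. Slc3a2 went from 892 and 1041 TPM at MF to 627 and 521 TPM at LF (log2 -0.77 ± 0.164 SE, adjusted p = 0.136). Slc6a9 went from 51.1 and 66 TPM to 35.7 and 17.7 TPM (log2 -1.22 ± 0.32 SE, adjusted p = 0.175). In both genes the LF libraries lay below both MF libraries in CPM, as they did for 25.3% of all genes. Slc7a5 had a log2 difference of -0.78 ± 0.257 SE (adjusted p = 0.218), of which much came from LF replicate 2, at 182 TPM against 331 TPM in replicate 1. Slc7a1 had log2 -0.49 ± 0.176 SE (adjusted p = 0.237) and Slc1a4 log2 -0.37 ± 0.164 SE. Slc1a5 had log2 -0.61 ± 0.28 SE and Slc7a3 log2 -0.45 ± 0.298 SE. The sodium-coupled pair showed little difference, with log2 -0.13 ± 0.227 SE for Slc38a2 and 0.01 ± 0.19 SE for Slc38a1.

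These calls depended on the test and on the LF replicates. DESeq2 called Slc3a2 (adjusted p = 0.0239) and Slc6a9 (adjusted p = 0.0123) lower in LF against MF, among 4.97% of all genes. Without polysome LF replicate 2, edgeR called Slc3a2 (log2 -0.67), Slc7a1 (log2 -0.60) and Slc6a9 (log2 -0.81) lower, among 6.83% of all genes. Without LF replicate 1, it called Slc3a2, Slc7a5, Slc1a5 and Slc6a9 lower, among 50.5% of all genes. The remaining LF library is assumed in these fits to vary like the other groups.

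HF against MF in polysome mRNA gave no call of a transporter or of any other gene (0%), and 453 of 13433 genes had an unadjusted p under 0.05. Slc7a3 was the only one of the 9 genes with an unadjusted p under 0.05. It went from 6.09 and 7.37 TPM at LF and 7.59 and 10.9 TPM at MF to 15.4 and 21.1 TPM at HF. Both HF libraries lay above both MF libraries in CPM, as for 26.5% of all genes. They also lay above both LF libraries, as for 21.7% of all genes. The difference of Slc7a3 between HF and MF was 2-fold (log2 1.00 ± 0.297 SE, adjusted p = 0.948). DESeq2 called 24 genes, none of them a transporter of the 9. When the fit held only the MF and HF libraries, Slc7a3 was called (adjusted p = 0.015), among 5.34% of all genes. It was also called by edgeR without polysome LF replicate 1 (adjusted p = 0.0117, among 5.12% of all genes) and without LF replicate 2 (adjusted p = 0.0109, among 5.68%), although LF is no part of this comparison and enters only the estimate of the spread. Slc7a5 (log2 -0.07) and Slc1a5 (log2 0.35) bounded the other genes, with Slc1a4, Slc6a9, Slc7a1, Slc38a2, Slc3a2 and Slc38a1 between them.

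HF against LF had positive values for all 9 genes in polysome mRNA, with a median of log2 0.71 against 0.01 for all genes, and 7 of the 9 had an unadjusted p under 0.05, as had 14% of all genes. None was called by edgeR, where 0.0149% of all genes were. Slc3a2, from 627 and 521 TPM to 1056 and 1111 TPM, differed 1.93-fold (log2 0.95 ± 0.164 SE, adjusted p = 0.158). Slc7a3 differed 2.73-fold (log2 1.45 ± 0.301 SE, adjusted p = 0.171), Slc6a9 2.52-fold (adjusted p = 0.195) and Slc1a5 1.95-fold (adjusted p = 0.231). Slc7a5 had log2 0.71, Slc7a1 0.64, Slc1a4 0.44, Slc38a2 0.28 and Slc38a1 0.22. DESeq2 called Slc3a2, Slc7a3 and Slc6a9 higher in HF (adjusted p = 0.00468, 0.00164 and 0.00751), among 2.88% of all genes. Without polysome LF replicate 2, edgeR called 6 of 9 genes higher, among 15.4% of all genes. Without LF replicate 1 it also called 6 of 9 higher, among 39.3% of all genes, with Slc7a5 in place of Slc38a2. LF is the shared group of this comparison and of LF against MF, so the values of both rest on the same libraries.

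**Figure D5:**
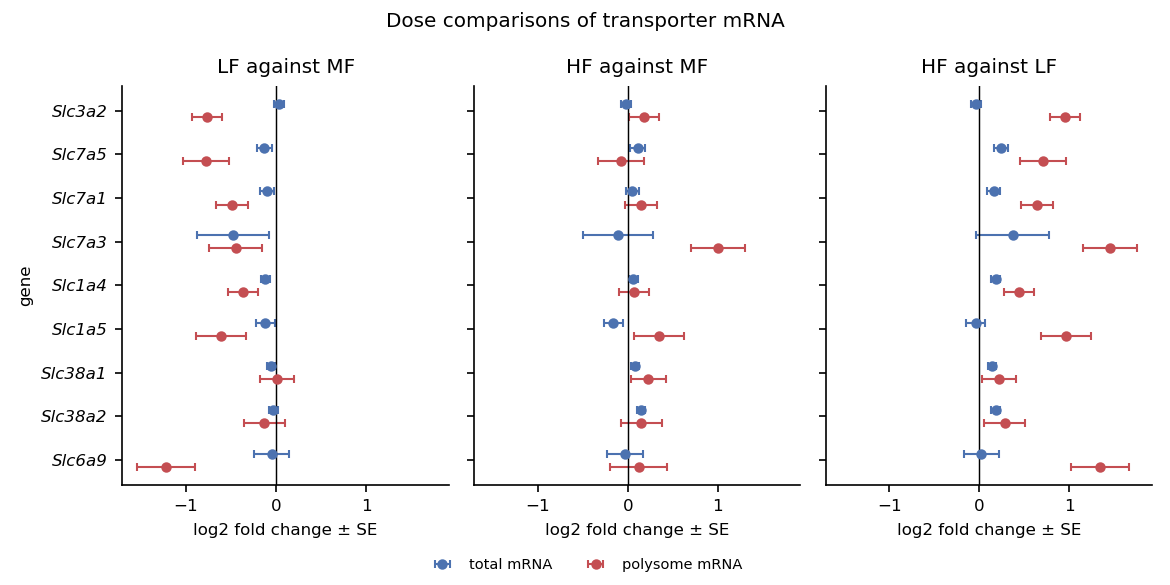
Log2 fold change of each transporter with bars of 1 standard error for 3 dose comparisons, from 2 libraries a group, blue for total and red for polysome mRNA. Total mRNA values stay near 0 except for Slc7a3 (log2 -0.48 in LF against MF), and the polysome values of LF against MF lie mostly on the negative side (median -0.49), with Slc38a1 and Slc38a2 near 0.

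The polysome to total ratio, called translation efficiency (TE) in such studies, was compared between doses as an interaction over all 12 libraries. In LF against MF none of the 9 genes was called (0.236% of all genes called), and 7 of 9 values were negative. Slc3a2 came nearest, with a ratio of 9.08 at LF and 15.7 at MF on the CPM scale (log2 -0.79 ± 0.161 SE, adjusted p = 0.0872). Slc6a9 had log2 -1.17 ± 0.405 SE, Slc7a5 -0.64, Slc1a5 -0.48, Slc7a1 -0.38 and Slc1a4 -0.25, and Slc38a2, Slc7a3 and Slc38a1 lay between -0.09 and 0.08. In HF against LF none was called either (0.0971% of all genes), and Slc3a2, with a ratio of 18 at HF, again came nearest (log2 0.98 ± 0.161 SE, adjusted p = 0.0555). It was called there with RLE in place of TMM scaling (adjusted p = 0.0423, 0.27% of all genes called), and in both comparisons by DESeq2 (adjusted p = 0.000374 and 3.35e-07, with 4.49% and 4.96% of all genes called). Slc6a9 (2.47-fold, adjusted p = 0.176) and Slc1a5 (log2 0.99, adjusted p = 0.185) followed, and both were called in HF against LF by DESeq2. Slc7a3 had log2 1.07 ± 0.499 SE, Slc7a1 0.47, Slc7a5 0.45 and Slc1a4 0.25, and Slc38a2 and Slc38a1 were at 0.09 and 0.06. Without polysome LF replicate 2, edgeR called Slc3a2 and Slc6a9 in LF against MF (6.76% of all genes) and Slc3a2, Slc7a1, Slc1a5 and Slc6a9 in HF against LF (17.2%). Without LF replicate 1 it called Slc3a2, Slc7a5, Slc1a5 and Slc6a9 in both comparisons (46.2% and 37.6% of all genes). In HF against MF no gene was called (0%), with 599 of 14421 at an unadjusted p under 0.05. Slc7a3 had the largest value of the 9 (log2 1.11 ± 0.482 SE, adjusted p = 0.982). Slc1a5 was at 0.51, and Slc7a5, Slc38a2, Slc1a4, Slc7a1, Slc6a9, Slc38a1 and Slc3a2 lay between -0.19 and 0.19.

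In polysome mRNA, the medians of the ATF4 response genes that are not transporters lay on the same side of 0 as those of the transporters. Their medians in total mRNA were log2 -0.03 (LF against MF), -0.01 (HF against MF) and 0.02 (HF against LF). Those of the transporters there were -0.10, 0.05 and 0.16. In polysome mRNA of LF against MF 25 of 30 were negative (median log2 -0.35), in HF against MF 28 of 30 were positive (median log2 0.24), and in HF against LF all 30 were positive (median log2 0.78). None was called in these comparisons. Without polysome LF replicate 2 the counts were 26 of 30, 28 of 30 and 29 of 30, with 15 called lower in LF against MF, 5 (Cth, Ddit3, Psph, Stc2 and Wars) called higher in HF against MF and 23 called higher in HF against LF, where 6.83%, 5.68% and 15.4% of all genes were called in either direction. In LF against MF, Shmt2, which makes glycine and folate-bound one-carbon units in mitochondria, had log2 -1.37 ± 0.198 SE (adjusted p = 0.0823), and Phgdh, the first enzyme of serine synthesis, had log2 -1.20 ± 0.218 SE (adjusted p = 0.121). In HF against LF, Wars had log2 1.15 ± 0.165 SE (adjusted p = 0.142) and Stc2, a secreted glycoprotein, log2 1.27 ± 0.2 SE (adjusted p = 0.155). For TE in HF against LF, Wars was the only called gene of the list (log2 1.10 ± 0.152 SE, adjusted p = 0.0466). In the same comparisons, the other amino acid transporters had medians of log2 -0.11, -0.01 and 0.12 and the mTORC1 genes -0.07, -0.03 and -0.02, with no call. Without polysome LF replicate 2 the medians of the other transporters were 0.09, 0.01 and -0.14, of the other sign in each comparison, and 2 genes (Slc7a11 and Slc7a4) were called lower in LF against MF, 1 higher (Slc6a15) and 3 lower (Slc38a10, Slc43a2 and Slc7a4) in HF against MF and 2 higher (Slc1a3 and Slc7a11) and 2 lower (Slc36a1 and Slc43a2) in HF against LF. Those of the mTORC1 genes were then 0.10, -0.03 and -0.10, with 1 gene called lower in LF against MF (Lamtor4), Fnip1 called higher and Castor2 lower in HF against MF, and Fnip1 and Lamtor2 called higher and Castor2 and Sesn3 lower in HF against LF. The genes called without this library were named after their values were seen.

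Markers of other cells were summed in the polysome groups, and no marker gene was called in a dose comparison of polysome mRNA. The summed TPM of 7 endothelial markers was 39.1 and 22.7 at LF, 60.2 and 59.7 at MF and 52.7 and 67.1 at HF. Most of this was the glucose transporter gene Slc2a1, while Cldn5, a defining tight junction gene, was at 0 in every library. The summed TPM of 8 neuronal markers was 54.7 and 57 at LF, 105 and 89.9 at MF and 67.8 and 72.1 at HF. This sum followed the tubulin gene Tubb3, at 28.2 and 17.6 TPM at LF against 78.9 and 59.3 TPM at MF (adjusted p = 0.116), while Snap25, Stmn2 and Map2 had positive values in LF against MF (log2 1.09, 1.00 and 0.36). The 10 neural stem cell markers summed to 8762 and 8709 at LF and to 7078 to 7533 at MF and HF. Most of that sum was Vim and Fabp7, and in LF against MF 5 of the 10 were negative (median log2 -0.02), among them Nes at -0.89, Hes5 at -0.78 and Msi1 at -0.47.

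For 10 mesenchymal and mural markers the polysome sum was 786 and 552 at LF, 745 and 712 at MF and 879 and 1052 at HF, while the sum in total mRNA was 553 and 595 at LF, 520 and 544 at MF and 376 and 444 at HF. In total mRNA, 5 of the 9 tested were called lower in HF against LF (Lum, Ogn, Tagln, Pdgfrb and Islr) and 1, Islr, in HF against MF. For TE in HF against LF, Tagln was called higher (log2 1.58, adjusted p = 0.0466). Fabp7 and the astrocytic Slc1a2 were called higher in total mRNA of HF against LF. These markers were named after their values were seen, and their part in the transporter values was not tested.

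Within each fraction, the log2 CPM of the 9 genes, centred on the mean of the fraction and averaged, ran from -0.17 to 0.08 in total mRNA. In polysome mRNA the averaged profile was -0.38 and -0.51 at LF, 0.02 and 0.19 at MF and 0.27 and 0.42 at HF. Most of the genes followed this profile closely (r of 0.819 to 0.943 over 12 libraries), but Slc38a1 and Slc38a2 did so less (r of 0.439 and 0.464), as a description of libraries that share depth and preparation. Each of the 9 genes is itself part of the averaged profile, which raises its r, so these values test nothing. Among 8835 other genes with at least 10 CPM in both fractions, the most like were Lrrk2, a kinase gene (r = 0.977), Hk2, the inducible hexokinase (r = 0.975), Synj2, a phosphoinositide phosphatase gene (r = 0.973), Polr1a, the large subunit of RNA polymerase I (r = 0.967), and Nop2, a nucleolar RNA methyltransferase gene (r = 0.96). Without polysome LF replicate 2, Hk2 (r = 0.981) and Lrrk2 (r = 0.972) were again among the 5 most like, with Fbn2, Akap12 and Nop56 in place of the other 3.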

How the data were processed

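Total and polysome poly(A) RNA-seq of 12 libraries was analysed from the deposited gene tables. The authors aligned read pairs with Bowtie2 2.2.9 to mm10 and assigned them to genes with RSEM 1.3.0. The strand setting and annotation release are not given in the sources used here. The deposited values were expected counts, which are estimates that need not be whole, with TPM and FPKM that the authors derived from them by effective length. Symbols and positions came from GENCODE M21. Library totals were 20506797 to 23593252 counts for total and 24193468 to 28170296 for polysome mRNA. Read pairs are not marked by molecular identifiers, and the real error is at least the counting error.

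Expected counts were rounded and tested with edgeR 4.0.16 in R 4.3.3 (filterByExpr, TMM, robust quasi-likelihood F test, Benjamini-Hochberg over all genes). Separate fits were made for total mRNA (6 libraries, 13912 genes, 3 residual degrees of freedom), polysome mRNA (6 libraries, 13433 genes, 3 degrees) and, for TE and polysome against total mRNA, all 12 libraries (14421 genes, 6 degrees). The biological coefficient of variation was 0.0433, 0.231 and 0.164. Thresholds were an adjusted p of 0.05 and a fold change of 1.2, those of the study. Scripts were tested on simulated data. Alternatives were RLE scaling, no filter, DESeq2 1.42.0, a replicate block, only the compared libraries and leaving out each library. Polysome against total mRNA at each dose, scaling by library totals only and the comparison with a single LF library were added after seeing the data.

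The members, lists and rules were chosen with earlier results of these data known. All 9 members are named in each comparison. Of each list, genes called in the main fits are named, up to 5 by smallest p. The 2 genes of smallest p, where none was called, are named only for the ATF4 list in polysome LF against MF and HF against LF. Other list comparisons without a call are given as medians or left out. Genes of like pattern are the 5 with the largest Pearson r. Replicate pairs differed by more than sampling noise, with a chi-square per degree of freedom of 2.70 or more, so no library was counted as a duplicate. Promoters came from RefSeq on GRCm38.p6. The proteins were not analysed here.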

Additional observations from a re-analysis of the deposited data

Results flagged for a closer look

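In HF against MF, the glutamine exchanger gene Slc1a5 had values of opposite sign in the 2 fractions. Both HF libraries lay below both MF libraries in total mRNA (log2 -0.16) and above both in polysome mRNA (log2 0.35). Neither difference was called, and of 13055 genes tested in both fractions 4.04% showed the same pattern. The interaction test did not pass (log2 0.51 ± 0.315 SE, adjusted p = 0.982).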

How the results depend on the processing

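The excess of the 9 transporters in polysome over total mRNA was kept with 9 of 9 called in every alternative, among them RLE scaling, scaling by library totals only, each dose alone and the fits without 1 library. The median of all genes was log2 -0.09 with TMM, -0.05 with RLE and -0.19 with library totals, and that of the 9 genes 2.93, 2.98 and 2.83. With 2 libraries a group, the spread is estimated over all doses of a fit, and in polysome mRNA it rests much on the LF pair. The dose results in polysome mRNA depended on the fit: Slc3a2 was called with no filter and with DESeq2 in LF against MF, HF against LF and both TE comparisons of these doses, and not in the main fits. The cause was not tested. Same-numbered replicates did not deviate together (r of -0.12 to 0.11 between groups), so the replicate number was not taken as a pairing. With the block, edgeR called Slc6a9 in polysome LF against MF (adjusted p = 0.0481), among 231 genes called, against 3 in the main fit. With 1 library left out, the lone library of a group is assumed to vary like the others. Slc7a5 in total mRNA of HF against LF had log2 0.40 without LF replicate 1, against 0.24 in the main fit, where it was not called. For TE in HF against MF, Slc38a2 was at 0.05 with RLE and with DESeq2 and at 0.00 without the filter, against slightly below 0. The comparisons follow as total, polysome or TE with both doses.

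The main counts of genes called were 1 (total LF-MF), 12 (total HF-MF), 249 (total HF-LF), 3 (polysome LF-MF), 0 (polysome HF-MF), 2 (polysome HF-LF), 34 (TE LF-MF), 0 (TE HF-MF) and 14 (TE HF-LF). Without the filter on low counts they were 50 (total LF-MF), 99 (total HF-MF), 421 (total HF-LF), 522 (polysome LF-MF), 10 (polysome HF-MF), 242 (polysome HF-LF), 229 (TE LF-MF), 10 (TE HF-MF) and 187 (TE HF-LF), and of the 9 transporters 2 (polysome LF-MF), 4 (polysome HF-LF), 1 (TE LF-MF) and 1 (TE HF-LF) were called. With DESeq2 they were 2 (total LF-MF), 23 (total HF-MF), 668 (polysome LF-MF), 24 (polysome HF-MF), 387 (polysome HF-LF), 647 (TE LF-MF), 30 (TE HF-MF) and 716 (TE HF-LF), and of the 9 transporters 2 (polysome LF-MF), 3 (polysome HF-LF), 1 (TE LF-MF) and 3 (TE HF-LF) were called. With the replicate block they were 36 (total LF-MF), 87 (total HF-MF), 231 (polysome LF-MF), 2 (polysome HF-MF), 41 (polysome HF-LF), 5 (TE LF-MF) and 3 (TE HF-LF), and of the 9 transporters 1 (polysome LF-MF) was called. With only the compared libraries they were 2 (total LF-MF), 34 (total HF-MF), 147 (total HF-LF), 707 (polysome HF-MF), 4 (TE LF-MF), 217 (TE HF-MF) and 2 (TE HF-LF), and of the 9 transporters 1 (polysome HF-MF) was called. With RLE scaling they were 54 (TE LF-MF) and 39 (TE HF-LF), and of the 9 transporters 1 (TE HF-LF) was called. Leaving out 1 library at a time, genes called ranged from 1 to 70 (total LF-MF), 0 to 97 (total HF-MF), 81 to 426 (total HF-LF), 2 to 6987 (polysome LF-MF), 0 to 783 (polysome HF-MF), 2 to 5438 (polysome HF-LF), 2 to 6853 (TE LF-MF), 0 to 443 (TE HF-MF) and 2 to 5576 (TE HF-LF), and transporters called from 0 to 1 (total HF-LF), 0 to 4 (polysome LF-MF), 0 to 1 (polysome HF-MF), 0 to 6 (polysome HF-LF), 0 to 4 (TE LF-MF) and 0 to 4 (TE HF-LF). Uncalled log2 values near 0 changed sign without some library. In total LF-MF the ranges were -0.03 to 0.08 (Slc3a2), -0.29 to 0.01 (Slc7a5) and -0.07 to 0.01 (Slc38a2). In total HF-MF the ranges were -0.07 to 0.04 (Slc3a2), -0.07 to 0.18 (Slc7a1), -0.39 to 0.24 (Slc7a3) and -0.25 to 0.18 (Slc6a9). In total HF-LF the ranges were -0.06 to 0.94 (Slc7a3), -0.12 to 0.04 (Slc1a5) and -0.20 to 0.22 (Slc6a9). In polysome LF-MF the ranges were -0.19 to 0.22 (Slc38a1) and -0.45 to 0.16 (Slc38a2). In polysome HF-MF the ranges were -0.15 to 0.02 (Slc7a5), -0.05 to 0.18 (Slc1a4), 0.00 to 0.29 (Slc38a2) and -0.01 to 0.25 (Slc6a9). In polysome HF-LF the ranges were -0.01 to 0.60 (Slc38a2). In TE LF-MF the ranges were -0.39 to 0.62 (Slc7a3), -0.13 to 0.27 (Slc38a1) and -0.42 to 0.18 (Slc38a2). In TE HF-MF the ranges were -0.03 to 0.21 (Slc7a1), -0.12 to 0.12 (Slc1a4), -0.16 to 0.14 (Slc38a2) and -0.06 to 0.35 (Slc6a9). In TE HF-LF the ranges were -0.12 to 0.28 (Slc38a1) and -0.18 to 0.42 (Slc38a2).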
